A study of Homo sapiens with 6 samples.

Results

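The genes of the epidermal growth factor (EGF) family were read from K562 cells treated with an iron chelator or with its solvent. They were chosen by name, with no threshold on their values: the ligands AREG, HBEGF, EREG, TGFA, EGF and BTC (6 genes) and the receptors EGFR, ERBB2 and ERBB3 (3 genes). These 9 genes, with 101 annotated transcripts, were taken from the 62252 genes measured. K562 is a suspension line of erythroid leukemia cells. The Chelator group was treated overnight with 10 µM 21H7, a cell-permeable iron chelator, and the DMSO group with an equal volume of DMSO, the solvent. Each group held 3 biological replicates of the same line, and polyadenylated RNA was sequenced from each. A single dose and time were sampled, so the values show the state of the cells after overnight treatment and not its course.

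EGF-family ligands are made as precursors anchored in the cell membrane, and proteases of the ADAM family cut them free. The released ligands bind EGFR, which pairs with itself or with ERBB2 or ERBB3 and sends signals through the RAS to ERK relay and through PI3K. The family is best known from epithelia, where it drives growth and repair, and a blood-derived line such as K562 is not a typical site of its action.

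The libraries held 78.6 to 90.4 M estimated counts in DMSO and 85.4 to 101.1 M in Chelator. The erythroid markers that define the line were present, all 9 of them tested, with a summed level of 12377 to 13719 TPM in DMSO (TPM gives a level per transcript length, as a part of a fixed library total) and 17495 to 18682 TPM in Chelator. Of these markers 4 were higher, all globins (HBG1, HBG2, HBZ and HBE1), and 3 were lower (KLF1, TAL1 and EPOR) at an adjusted p under 0.05. Over all genes with an adjusted p, 19.5% were higher and 18.3% lower at that threshold. Fragments, read from the median gap between transcript length and effective length, were shorter in Chelator, at 201 to 219 bases against 253 to 265 bases in DMSO, so treatment and fragment length cannot be told apart here. No library was a copy of another: within a group the counts of every pair differed by more than sampling noise. DMSO replicate 2 stood apart from the other DMSO libraries, with a chi-square per gene of 63.6 and 44.4 against them, where DMSO replicates 1 and 3 differed by 8.53 and libraries of different groups by 219 to 327. Chelator replicate 1 likewise stood apart, with 30.0 and 28.1 against the other Chelator libraries, which differed by 6.54. Without DMSO replicate 2 the log2 fold changes were 2.27 for AREG, 1.40 for HBEGF, -0.39 for EREG and 0.64 for ERBB2, each with an adjusted p under 0.05 by DESeq2, and 0.32 for EGF, which missed it (adjusted p = 0.185 by DESeq2). Without Chelator replicate 1 they were 2.40 for AREG, 1.64 for HBEGF, -0.45 for EREG and 0.47 for ERBB2, which passed, and 0.46 for EGF, which did not (adjusted p = 0.194 by DESeq2).

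AREG and HBEGF, both ligands, rose with iron chelation, by 5.38-fold and 3.17-fold. EREG, a ligand whose gene lies beside AREG, fell slightly, and EGF and the receptor ERBB2 rose by less than the fold threshold. ERBB3 did not pass the test, and EGFR, TGFA and BTC were at or near 0 counts. A gene was called when its DESeq2 adjusted p was under 0.05 and its absolute log2 fold change was above 1. Of the 9 genes, 7 had enough counts to be tested and 2 were called, both higher, where 10.8% of the 24542 genes with an adjusted p were called and 8.18% were called higher. With no fold threshold 5 of the 7 passed, 4 higher and 1 lower, against 37.7% of all genes. The median log2 fold change of the 7 was 0.55, beside 0.016 over all genes with an adjusted p.

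**Figure D1:**
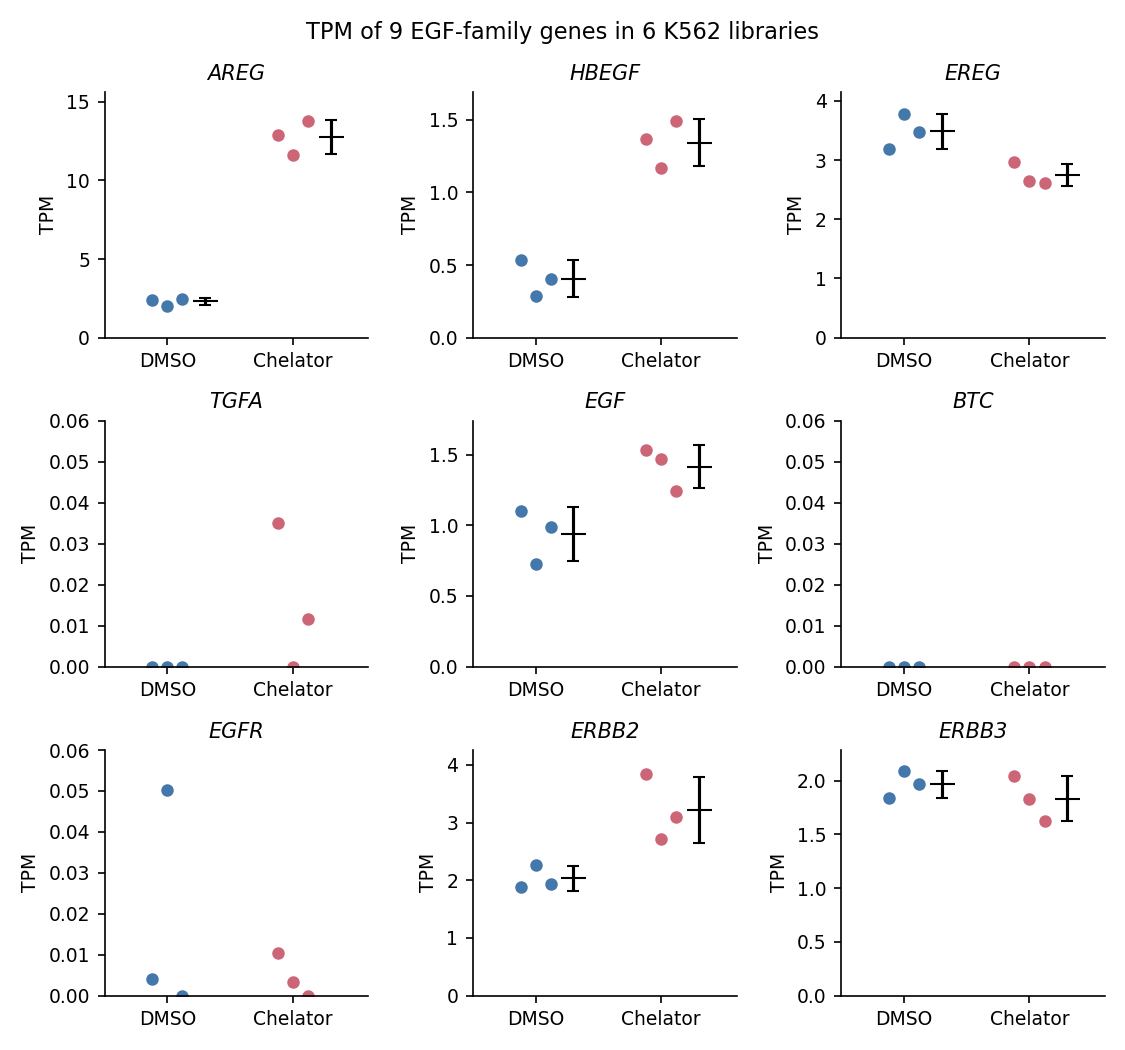
Level of each gene in TPM (y axis, from 0, own scale per panel) in the 3 DMSO and 3 Chelator libraries (points), with the mean and SD beside them except for TGFA, BTC and EGFR, which were at or near 0. AREG stands at 2.03 to 2.49 TPM in DMSO and 11.6 to 13.8 TPM in Chelator, and the panel of EREG shows the opposite direction.

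The AREG gene (amphiregulin, ENSG00000109321.11) lies at chr4:74445136-74455005 on the forward strand of GRCh38. Its start and that of EREG are shown because these neighbouring ligand genes moved in opposite directions. Each sequence below is the 250 bases before the RefSeq start (GRCh38.p14), written 5′ to 3′ on the strand of the gene. Capitals mark the cAMP response element TGACGTCA, the TATA box TATAAA and the hypoxia response element core (ACGTG or GCGTG, either strand, so CACGC is a match), and no marked stretch overlaps another. AREG is chr4:74444886-74445135 and EREG is chr4:74364895-74365144, both on the forward strand.
AREG: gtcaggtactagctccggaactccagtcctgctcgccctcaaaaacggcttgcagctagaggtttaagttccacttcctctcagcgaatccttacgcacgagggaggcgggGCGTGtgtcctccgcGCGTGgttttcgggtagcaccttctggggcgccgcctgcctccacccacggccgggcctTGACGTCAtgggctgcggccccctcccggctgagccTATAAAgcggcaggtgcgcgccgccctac
EREG: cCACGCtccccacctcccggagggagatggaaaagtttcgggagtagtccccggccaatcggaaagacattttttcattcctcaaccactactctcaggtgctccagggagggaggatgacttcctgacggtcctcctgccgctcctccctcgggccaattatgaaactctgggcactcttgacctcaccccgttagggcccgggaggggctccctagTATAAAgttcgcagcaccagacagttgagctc
Motifs were searched on both strands from 250 bases before to 50 bases after the start, in 35116 RefSeq windows. TGACGTCA was found in the AREG window, at bases -65 to -58 from the start, in no window of the other members, and in 1.85% of all windows. TATAAA stood at -29 in AREG and at -32 in EREG, was also found for EGFR, and was in 11.5% of windows. The hypoxia response element core was found in 48.4% of windows, so its matches in AREG (2), EREG (2), HBEGF (1, at 26 to 30 after the start), BTC and TGFA set none of them apart. TGANTCA (AP-1), in 7.71% of windows, was found for EGF, EGFR and ERBB2. GCGGGGGCG (EGR), in 5.07%, and the CArG box, in 1.29%, were in no member window, and the NF-kappaB site, in 11.3%, was found for BTC and TGFA. Windows were given for 8 of the 9 genes, all but ERBB3.

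Among the ligands, AREG changed most. AREG had 177, 124 and 157 estimated counts in DMSO and 1012, 971 and 982 in Chelator. Its level was 2.40, 2.03 and 2.49 TPM in DMSO and 12.9, 11.6 and 13.8 TPM in Chelator. Every Chelator library was therefore well above every DMSO library. The normalized count, scaled for library size and transcript length, rose from 168 ± 31.9 to 904 ± 93.9 (SD, n = 3), and the log2 fold change was 2.43 (SE 0.17, 95% interval 2.09 to 2.76, adjusted p = 3.93e-44 by DESeq2). Among all genes called higher, 729 had a larger log2 fold change than AREG. Nearly all of the signal came from the canonical mRNA AREG-201, which took 100.0% of the gene's TPM in DMSO and 99.5% in Chelator. No stretch of 31 bases in that mRNA was shared with another gene, so AREG counts were not split with a near copy. Among the canonical mRNAs of the other members, EREG shared 3.1% of such stretches with other genes, and EGF and ERBB3 shared 0.7% each.

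HBEGF (heparin-binding EGF-like growth factor, ENSG00000113070.8, chr5:140332843-140346603, reverse strand) started from a lower level. HBEGF levels were 0.533, 0.285 and 0.404 TPM in DMSO and 1.37, 1.17 and 1.49 TPM in Chelator. These came from 40.0 to 87.0 estimated counts in DMSO and 212 to 240 in Chelator, and the groups did not overlap. Its normalized count rose from 66.5 ± 24.9 to 211 ± 29.0 (SD, n = 3), and the log2 fold change was 1.67 (SE 0.303, 95% interval 1.07 to 2.26, adjusted p = 2.93e-07 by DESeq2). Its canonical transcript HBEGF-201 took 97.9% of the gene's TPM in DMSO and 94.9% in Chelator. The SE of HBEGF was larger than that of AREG. A test against a log2 fold change of 1, in place of 0, left an adjusted p of 0.618 for HBEGF and 8.44e-15 for AREG.

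EREG (epiregulin, ENSG00000124882.4, chr4:74365145-74388749, forward strand), an EGFR and ERBB4 ligand, had the highest level of the 9 genes in DMSO. EREG stood at 3.19, 3.78 and 3.48 TPM in DMSO and at 2.96, 2.65 and 2.62 TPM in Chelator. All Chelator libraries were below all DMSO libraries, by a small margin. The normalized count of EREG went from 736 ± 30.5 to 570 ± 54.1 (SD, n = 3), and the log2 fold change was -0.37 (SE 0.128, 95% interval -0.62 to -0.12, adjusted p = 0.0127 by DESeq2). When 1 library at a time was left out, the adjusted p of EREG reached 0.0698 and was under 0.05 in 3 of 6 fits, those without DMSO replicate 1, DMSO replicate 2 or Chelator replicate 1.

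EGF, the founding ligand of the family (ENSG00000138798.13, chr4:109912883-110013766, forward strand), was higher in Chelator. EGF levels were 1.1, 0.727 and 0.99 TPM in DMSO and 1.53, 1.47 and 1.24 TPM in Chelator, without overlap. Its normalized count was 250 ± 70.3 in DMSO and 364 ± 42.9 in Chelator (SD, n = 3), and the log2 fold change was 0.55 (SE 0.224, adjusted p = 0.0403 by DESeq2). The counts of EGF were divided among 13 annotated transcripts. In DMSO replicate 3 the transcript EGF-203, which has no defined coding sequence and is 683 bases long, took 36.5% of the gene's TPM from 8 counts, and it had 0 counts in the other libraries. On protein-coding transcripts alone the log2 fold change of EGF was 0.91 (adjusted p = 1.04e-05 by DESeq2), and without the correction for transcript length it was 0.89 (adjusted p = 1.1e-06 by DESeq2). Over the fits that left out 1 library it ran from 0.32 (without DMSO replicate 2, adjusted p = 0.185 by DESeq2) to 0.72 (without DMSO replicate 1), and was 0.61 without DMSO replicate 3, with an adjusted p under 0.05 in 1 of 6.

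TGFA (transforming growth factor alpha, ENSG00000163235.16, chr2:70447284-70554193, reverse strand) and BTC (betacellulin, ENSG00000174808.12, chr4:74744759-74794523, reverse strand) were not detected at a level that could be tested. TGFA had 0 counts throughout DMSO and 3, 0 and 3 in Chelator. BTC had 0 counts in all 6 libraries. A count of 0 allows up to 3 counts, which for BTC is 0.035 to 0.046 TPM in a library and for TGFA in DMSO is 0.02 to 0.024 TPM, for counting error only.

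As a sum over the 6 genes, ligand mRNA was 7.22, 6.82 and 7.36 TPM in DMSO and 18.8, 16.9 and 19.1 TPM in Chelator. The mean was 7.13 ± 0.277 TPM and 18.3 ± 1.21 TPM (SD, n = 3). The groups did not overlap. Since the sum holds genes chosen with earlier results known, it is given as a description with no test, as are the shares and ratios below. AREG took 32.3% ± 2.23 of the ligand sum in DMSO and 69.8% ± 1.92 in Chelator (SD, n = 3). EREG went from 49.0% ± 5.84 to 15.0% ± 1.18 of the sum (SD, n = 3), and EGF from 13.1% ± 2.29 to 7.78% ± 1.15 (SD, n = 3). The most abundant ligand mRNA was thus EREG in every DMSO library and AREG in every Chelator library. The ratio of AREG to EREG was 0.753, 0.535 and 0.715 in DMSO and 4.36, 4.37 and 5.26 in Chelator. HBEGF took 5.68% ± 1.61 of the sum in DMSO and 7.34% ± 0.438 in Chelator (SD, n = 3), and its shares overlapped.

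**Figure D2:**
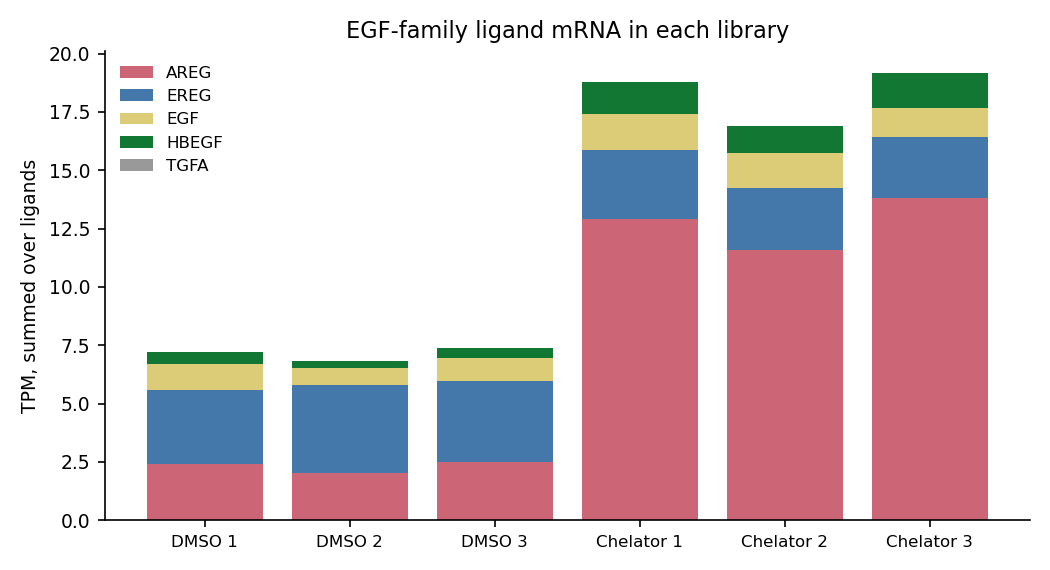
Stacked bars of ligand mRNA in TPM (y axis, from 0) in each of the 6 libraries, by gene. The sum is 6.82 to 7.36 TPM in DMSO, where EREG is the largest share, and 16.9 to 19.1 TPM in Chelator, where AREG is the largest share.

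Among the receptors, ERBB2 was higher in Chelator, ERBB3 was not shown to change and EGFR was barely detected. ERBB2 (ENSG00000141736.14, chr17:39687914-39730426, forward strand) binds no known ligand and acts as the partner of the other receptors. ERBB2 stood at 1.89, 2.27 and 1.93 TPM in DMSO and at 3.84, 2.71 and 3.10 TPM in Chelator, without overlap. Its normalized count rose from 620 ± 3.45 to 968 ± 201 (SD, n = 3), and the log2 fold change was 0.64 (SE 0.152, 95% interval 0.34 to 0.94, adjusted p = 0.000128 by DESeq2). The Chelator libraries were more spread than the DMSO libraries, and Chelator replicate 1 was the highest. The ERBB2 gene overlaps PGAP3 and MIEN1 on the opposite strand, with 640 to 847 and 1862 to 2805 counts per library. Whether counting used the strand is not given in the sources used here, so reads of these genes may not be told apart where they overlap.

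ERBB3 (ENSG00000065361.17, chr12:56076799-56103505, forward strand), a receptor with a weak kinase of its own, stood at 1.84, 2.09 and 1.97 TPM in DMSO and at 2.04, 1.83 and 1.62 TPM in Chelator. The groups of ERBB3 overlapped, and its log2 fold change was -0.13 (SE 0.144, 95% interval -0.41 to 0.15, adjusted p = 0.541 by DESeq2). EGFR (ENSG00000146648.21, chr7:55019017-55211628, forward strand), the main receptor of all 6 ligands, had 3, 5 and 0 counts in DMSO and 3, 1 and 0 in Chelator. Its level was at most 0.0503 TPM in any library, and the estimate of -1.72 on the log2 scale was imprecise (SE 1.98, adjusted p = 0.554 by DESeq2). A change in EGFR was not detectable at this depth. In these bulk samples, fewer cells of a type and less RNA per cell cannot be told apart.

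The sum of receptor mRNA was 3.73 to 4.41 TPM in DMSO and 4.55 to 5.89 TPM in Chelator. The ratio of ERBB2 to ERBB3 was 1.03 ± 0.0521 in DMSO and 1.76 ± 0.239 in Chelator (SD, n = 3). Ligand TPM exceeded receptor TPM 1.79 ± 0.210 times in DMSO and 3.65 ± 0.438 times in Chelator (SD, n = 3), and in both ratios the groups did not overlap. Of the 7 members with an adjusted p, 5 had groups without overlap (AREG, HBEGF, EREG, EGF and ERBB2), where 49.2% of all genes with an adjusted p did.

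Ordered by TPM in DMSO, EREG was followed by AREG, ERBB2, ERBB3, EGF, HBEGF and EGFR. The ranges of AREG and ERBB2 overlapped, as did those of ERBB2 and ERBB3, and the other steps down to EGFR did not. In Chelator the order was AREG, ERBB2, EREG, ERBB3, EGF, HBEGF, TGFA and EGFR. There the ranges of ERBB2 and EREG overlapped, as did those of EGF and HBEGF and of TGFA and EGFR. The range of HBEGF thus overlapped that of EGF in Chelator, while in DMSO it lay below it.

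**Figure D3:**
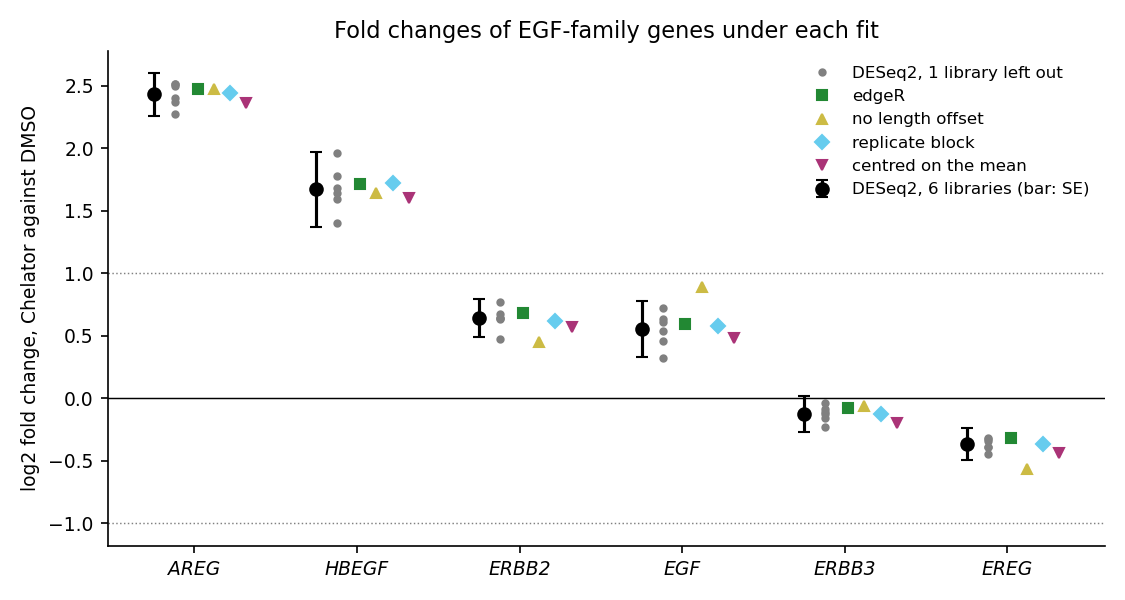
Log2 fold change of Chelator against DMSO (y axis) for 6 of the 7 tested genes (EGFR, with an SE of 1.98, is not drawn), with the DESeq2 value and its SE (black) and the values from other fits (other markers), and dotted lines at the fold threshold of 1. AREG (2.27 to 2.51 with 1 library left out) and HBEGF (1.40 to 1.96) stay above the threshold in the fits drawn, and among the fits drawn EGF lies between 0.32 with 1 library left out and 0.89 without the length correction.

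The transcripts of the members were examined next, since the deposited values are per transcript. Transcript usage could be tested for EREG, EGF, ERBB2 and ERBB3, and none of the 4 was called, where 9.22% of 11938 genes were (edgeR diffSpliceDGE, adjusted p under 0.05 and a share changed by more than 5 percentage points). The mRNA EREG-201 took 83.5% ± 3.9 of EREG in DMSO and 78.3% ± 7.2 in Chelator (SD, n = 3). EREG-203, a retained-intron transcript, had shares of 7.5%, 9.2% and 11.7% in DMSO and 25.1%, 22.2% and 14.2% in Chelator. These shares did not overlap, but the gene's adjusted p was 1 in the edgeR test, and it was 0.0396 in limma's diffSplice. ERBB2-216, a retained-intron transcript of 849 bases, had 4, 0 and 7 counts in DMSO and 53, 16 and 33 in Chelator. Its share of ERBB2 was 4.3% ± 4.2 in DMSO and 19.7% ± 8.5 in Chelator (SD, n = 3), with an edgeR adjusted p of 0.552 for the gene. In single libraries its share was 4.6%, 0.0% and 8.3% in DMSO and 26.8%, 10.4% and 22.1% in Chelator, without overlap. When any 1 Chelator library was left out, or where a transcript needed 50 counts, ERBB2-216 had too few counts to be tested. The largest change among the other ERBB2 transcripts was then 2.1, 14.8 and 10.6 percentage points without Chelator replicate 1, 2 and 3, and 7.9 points with the 50-count minimum. On protein-coding transcripts alone the log2 fold change of ERBB2 was 0.43 (adjusted p = 0.00314 by DESeq2) and that of EREG -0.41 (adjusted p = 0.000981 by DESeq2).

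The main protein-coding transcripts of ERBB2, ERBB2-202 and ERBB2-219, took 51.2% ± 14.5 and 21.6% ± 8.7 in DMSO and 43.3% ± 17.1 and 17.9% ± 3.8 in Chelator (SD, n = 3). EGF-206 took 35.8% ± 6.4 of EGF in DMSO and 54.3% ± 11.2 in Chelator, and EGF-204 took 25.3% ± 22.0 and 14% ± 0.9 (SD, n = 3). The canonical EGF-201 took 10.1% ± 9.2 and 15.6% ± 4.1 (SD, n = 3). For ERBB3, ERBB3-201 took 59.7% ± 4.4 and 55.9% ± 2.4, and ERBB3-202 took 22.1% ± 11.4 and 16.1% ± 11.8 (SD, n = 3). The spread between replicates of EGF-204, ERBB2-202 and ERBB3-202 was large.

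The last 500 bases of each canonical mRNA were searched for ATTTA, a motif known from short-lived mRNAs. AREG held 4 copies, and 5.5% of 19611 genes held as many or more. TGFA also held 4, EREG and BTC held 3, HBEGF, EGFR and ERBB3 held 1, and EGF and ERBB2 held none. The median gene held 1, so the count was above the median both in AREG, which rose, and in EREG, which fell. For EGF the canonical mRNA took only 10.1% of the gene's TPM in DMSO and 15.6% in Chelator. The main ERBB2 transcripts were not the canonical one. For these 2 genes the ATTTA counts need not hold for the mRNAs measured.

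The genes for AREG, EREG and BTC lie together on chromosome 4 with EPGN (epigen, another EGFR ligand), within 486 kb. The end of EREG is 56 kb from the start of AREG, and BTC lies 290 kb beyond AREG. AREG was the member of this group that rose, while EREG fell, EPGN had a log2 fold change of -0.73 (SE 0.493, adjusted p = 0.258 by DESeq2) and BTC had 0 counts. Of the 15 protein-coding genes within 500 kb of this span, 7 were tested and 3 were called, all higher, beside 8.18% of all genes: AREG and the chemokine genes CXCL3 and CXCL2. CXCL3, at -409 kb from AREG, had 69, 35 and 92 counts in DMSO and 298, 408 and 354 in Chelator, a log2 fold change of 2.20 (SE 0.31, adjusted p = 1.59e-11 by DESeq2). CXCL2, at -348 kb from AREG, had 25, 20 and 23 counts and 111, 133 and 136, a log2 fold change of 2.16 (SE 0.361, adjusted p = 2.05e-08 by DESeq2). CXCL1 had 1, 3 and 0 counts in DMSO and 7, 15 and 14 in Chelator, a log2 fold change of 2.13 (SE 1.35) that did not pass (adjusted p = 0.221 by DESeq2). Between the chemokine genes and EPGN, MTHFD2L, a mitochondrial folate enzyme, had a log2 fold change of -0.44 (SE 0.106, adjusted p = 0.000172 by DESeq2).

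**Figure D4:**
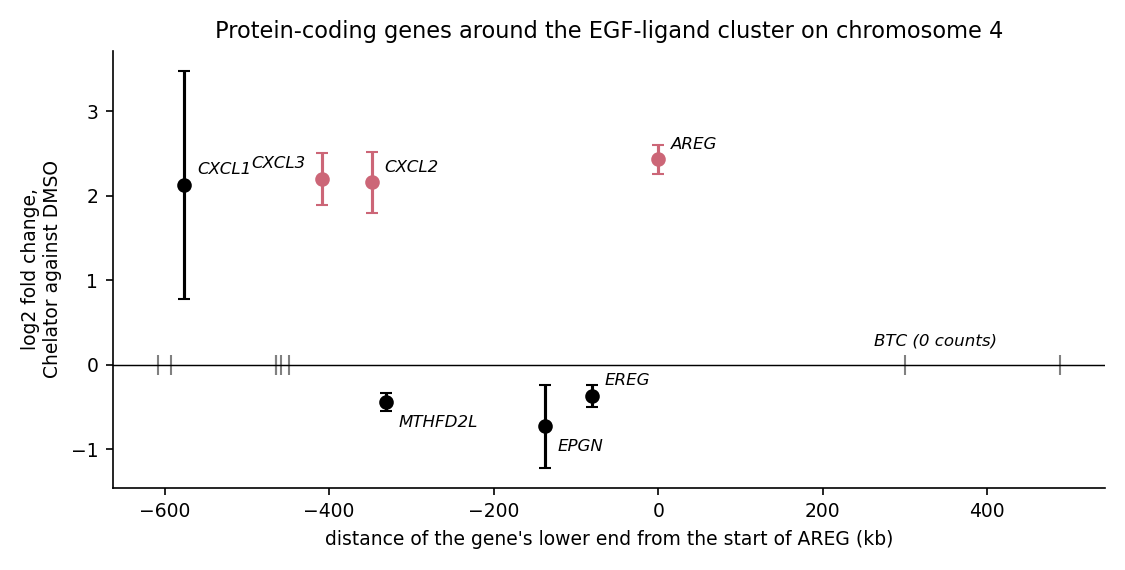
Log2 fold change with its SE (y axis) against the distance in kb of each protein-coding gene's lower end from the start of AREG (x axis), with called genes in red and untested genes as ticks on the 0 line. AREG, CXCL2 and CXCL3 lie between 2.16 and 2.43, and EREG, EPGN and MTHFD2L lie below 0.

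The genes whose pattern over the 6 libraries was most like AREG were CDC6, LINC02772, EVI5L, BRD8 and HLA-E, among 13486 genes whose normalized counts averaged at least 100. Their Pearson r with AREG ran from 0.9989 for HLA-E to 0.9995 for CDC6. The 6 points share the step between the groups, and 377 genes had an r above 0.99, so the order among them is a description. The log2 fold changes were 0.26 for CDC6, 0.67 for BRD8, 0.98 for HLA-E, 1.69 for LINC02772 and 1.71 for EVI5L, all smaller than that of AREG.

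The remaining genes of the pathway were read as lists. Of the 6 other family members (EPGN, NRG1 to NRG4 and ERBB4), 3 had an adjusted p. None of the 3 was under 0.05, where 37.7% of all genes were. The median log2 fold change over these 3 was -0.05. ERBB4, the receptor of the neuregulins and of several EGF-like ligands, and NRG3 had 0 counts in all libraries.

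Of 12 genes that cut ligands loose or move them to the membrane, 11 had an adjusted p, 5 were higher and 1 was lower at an adjusted p under 0.05 (19.5% and 18.3% over all genes), and 1 was called (10.8% over all genes). The median log2 fold change was 0.14, beside 0.016 over all genes with an adjusted p. The called gene was TIMP3, an inhibitor of the ADAM proteases, with 55.6, 50.2 and 48.3 normalized counts in DMSO and 221, 171 and 175 in Chelator. TIMP3 was higher in every Chelator library than in any DMSO library, with a log2 fold change of 1.88 (SE 0.272, adjusted p = 6.11e-11 by DESeq2). The gene that fell was ADAM15, with a log2 fold change of -0.21 (SE 0.0844, adjusted p = 0.0383 by DESeq2). ADAM17, the protease that releases AREG and HBEGF, had a log2 fold change of 0.11 (adjusted p = 0.501 by DESeq2).

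Of 16 genes that restrain the receptors or send them for turnover, 15 had an adjusted p, 6 were higher and 3 lower at an adjusted p under 0.05 (19.5% and 18.3% over all genes), and 3 were called, all higher (8.18% over all genes). ERRFI1, an inhibitor that binds the EGFR kinase and is itself induced by the pathway, had 215, 237 and 195 normalized counts in DMSO and 1015, 805 and 812 in Chelator. The log2 fold change of ERRFI1 was 2.02 (SE 0.157, adjusted p = 2.77e-36 by DESeq2). SH3KBP1, an adaptor of the CBL ubiquitin ligases, had 295, 243 and 284 normalized counts and 607, 524 and 645, a log2 fold change of 1.11 (SE 0.159, adjusted p = 3.22e-11 by DESeq2). CBLB, one of these ligases, had 363, 820 and 388 normalized counts and 1315, 926 and 1226, a log2 fold change of 1.14 (SE 0.41, adjusted p = 0.0164 by DESeq2). For CBLB the DMSO libraries were widely spread and DMSO replicate 2 lay near the lowest Chelator library. SOCS5 fell most, with a log2 fold change of -0.37 (SE 0.0979, adjusted p = 0.000644 by DESeq2). The median of the list was 0.14.

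Of 20 adaptors and members of the RAS to ERK relay, none was called, where 10.8% of all genes were. At an adjusted p under 0.05, 3 were higher and 9 lower, against 19.5% and 18.3% of all genes. The median log2 fold change of this list was -0.04. ELK1, a transcription factor that ERK phosphorylates, rose most, from 8538 ± 280 to 12361 ± 76.0 normalized counts (SD, n = 3), and the log2 fold change was 0.53 (SE 0.0642, adjusted p = 1.73e-15 by DESeq2). PTPN11, the phosphatase SHP2 that helps to activate RAS, fell most, from 38241 ± 1999 to 22135 ± 1915 (SD, n = 3), and the log2 fold change was -0.79 (SE 0.0814, adjusted p = 9.63e-21 by DESeq2). Of 10 genes of the PI3K branch, 1 was called, lower, where 2.60% of all genes were, and at an adjusted p under 0.05 1 was higher and 4 lower, with a median of -0.12. PIK3R2, a regulatory subunit of PI3K, dropped from 12498 ± 521 to 5824 ± 268 normalized counts (SD, n = 3), and the log2 fold change was -1.10 (SE 0.072, adjusted p = 9.78e-51 by DESeq2). PIK3CB, a catalytic subunit, rose, with a log2 fold change of 0.41 (SE 0.0738, adjusted p = 2.75e-07 by DESeq2).

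**Figure D5:**
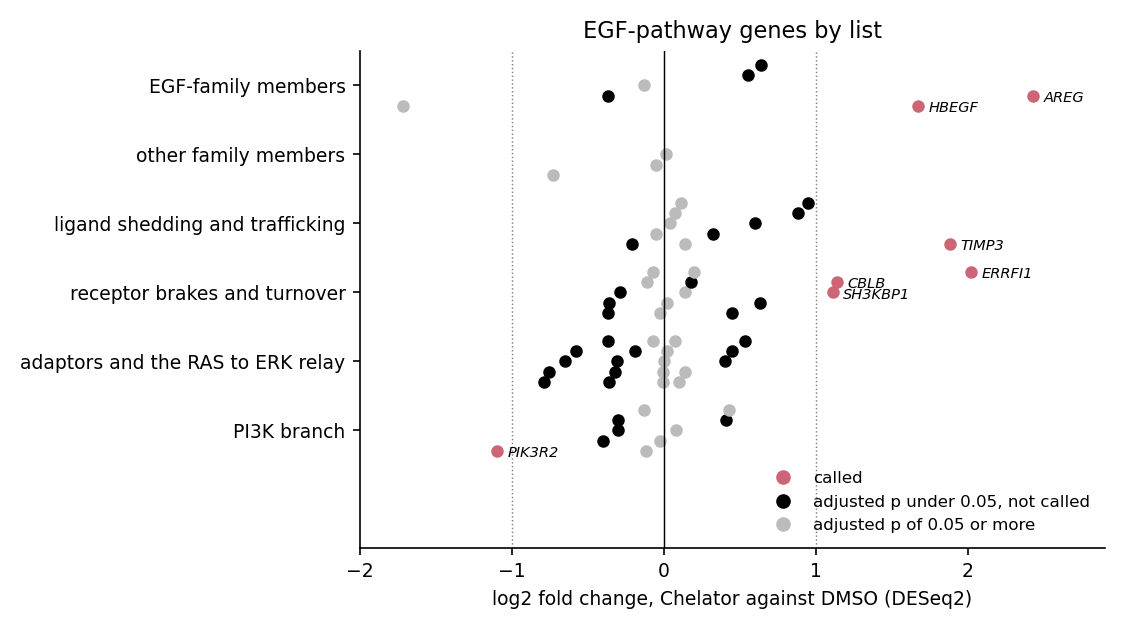
Log2 fold change (x axis) of each gene with an adjusted p in 6 lists of the pathway (y axis), with called genes in red and named, genes with an adjusted p under 0.05 but not called in black and the others in grey. NRG2 and LRIG3, tested but given no adjusted p, are not drawn. The called genes that rose are AREG, HBEGF, TIMP3, ERRFI1, CBLB and SH3KBP1, and PIK3R2 is the called gene that fell.

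The summed markers of other cell types were also higher in Chelator, except the epithelial markers, whose groups overlapped. Over all genes with an adjusted p, 10.8% were called and 8.18% were called higher. The summed level of 5 lymphoid markers was 11.8 to 17.8 TPM in DMSO and 42.4 to 44.3 TPM in Chelator, with CD3D and CD3E called and MS4A1 at 0 counts. CD3D alone gave 12.8 and 39.8 TPM of these sums on average. The 5 monocyte markers, none called, summed to 11.4 to 12.1 TPM and 17.3 to 19.8 TPM, of which LYZ gave 11.7 and 18.6 TPM on average and each other gene at most 0.111 TPM. The 7 megakaryocyte markers summed to 4.46 to 5.14 TPM and 7.59 to 9.23 TPM, with ITGB3 called and PF4 at 0 counts. The 5 fibroblast markers summed to 2.74 to 3.38 TPM and 3.44 to 3.90 TPM. Of these, COL1A1 was called higher, while COL1A2 fell, with a log2 fold change of -0.48 (adjusted p = 0.0026 by DESeq2). The 6 epithelial markers, of cells that commonly make these ligands, summed to 0.441 to 0.509 TPM and 0.486 to 0.836 TPM. Of the epithelial markers, KRT6A was at 0 counts and KRT5 and KRT14 had at most 1 count in a library, while KRT17 was called higher. TP63 and CDH1 had log2 fold changes of -0.53 and -1.09 and did not pass (adjusted p = 0.236 and 0.548 by DESeq2). The part of these markers in the ligand results was not tested.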

How the data were processed

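Groups and replicate numbers of the 3 DMSO and 3 Chelator libraries came from the labels. The authors quantified reads with Salmon 1.10.2, per the labels, which name genome build hg38; the annotation and bias options are not given in the sources used here. The deposited files give an estimated count per transcript, which need not be whole. For TPM, the authors' software divided these counts by effective transcript length and scaled them to a common sum.

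Of 252045 transcripts, 251142 matched GENCODE release 44 with the same version, 470 with another version and 433 not at all (0.139% to 0.150% of counts, left out). Estimated counts were summed per gene and rounded. Genes with a total count above 10 were tested with DESeq2 1.42.0 (Wald test, median-ratio size factors, average transcript length as offset). The test, the count minimum and the thresholds follow the authors' stated methods, which do not name the offset. In all 26074 genes were tested and 24542 were given a Benjamini-Hochberg adjusted p. Transcript usage was tested with edgeR 4.0.16 (diffSpliceDGE; a transcript needed 10 counts in 3 or more libraries). Single libraries of 78.6 to 101.1 M counts set the precision, and a 0 was read as up to 3 counts. The fits were tested on simulated data.

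Alternatives were edgeR's quasi-likelihood test, TMM and mean centring, no length offset, other count filters and fold thresholds, a replicate block, each library left out, limma 3.58.1 diffSplice for usage and, added after the members' transcripts were seen, protein-coding transcripts alone. The named genes were the 9 members, and in each pathway list every called gene and the largest rise and fall among those with an adjusted p under 0.05, together with the protein-coding genes within 500 kb of the chromosome 4 ligand genes, the 5 genes most like AREG, and transcripts with at least 10% of a member's TPM. ADAM17, and the marker genes named, were chosen outside this rule after their values were seen. The members, lists and rules were chosen with earlier results of these data known. Promoter sequences are from RefSeq (GRCh38.p14), and other coordinates are 1-based on GRCh38.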

Additional observations from a re-analysis of the deposited data

How the results depend on the processing

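AREG was called in all 16 other fits and HBEGF in all but the test against a log2 fold change of 1, so that 2 of the 9 genes were called, except 5 with no fold threshold and 1 in that test. Over all genes, 2646 were called (2007 higher), against 9260 (4774 higher) with no fold threshold and 674 (615 higher) in that test, and 1783 on protein-coding transcripts alone. Leaving out 1 library gave 2207 to 2607 genes called, 1666 to 1998 higher, and 2 members in every fit. Usage called 1101 genes, 3184 with limma, and 539 to 1063 with 1 library left out, lowest without Chelator replicate 3 (539) and Chelator replicate 2 (592). Whether the replicate numbers pair the libraries was not settled: same-numbered deviations correlated at -0.075, 0.13 and 0.101. Libraries numbered 2 and 3 correlated best with their own number, and those numbered 1 did not. Groups of 3 libraries are too small for these values to show or exclude pairing. With the replicate block 2345 genes were called, 2 of them members, and the log2 fold changes were 2.44 for AREG and 1.72 for HBEGF.

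EREG kept its direction in every fit (-0.57 to -0.32) and EGF in every fit (0.32 to 0.91), but their adjusted p passed 0.05 only in part. For EGF it was 0.0517 in edgeR, 0.0501 with the replicate block and 0.08 with mean centring, and EREG without Chelator replicate 2, Chelator replicate 3 or DMSO replicate 3 missed it as well. ERBB2 stayed between 0.43 and 0.77 with an adjusted p under 0.05 in every fit against 0. The log2 fold change of each tested member kept its sign in every fit that gave one, and EGFR had no value in some fits. For usage, only the size of the largest share change was compared between fits, so its direction was not followed. Named genes outside the family were not compared between fits. EGFR, TGFA and BTC had 0 to 5 counts per library, too few for a change to be shown. For the changes of adjusted p and of counts called with the setting, the cause was not tested.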
